A study of Mus musculus with 10 samples.

Results

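The distal convoluted tubule is the short stretch of the nephron in which the thiazide-sensitive cotransporter takes up sodium chloride, and the genes described here make that transporter, the kinases and ubiquitin ligase adaptors that control it, and the magnesium and calcium handling proteins of the same segment. They were chosen by symbol: Slc12a3, Wnk1, Wnk4, Stk39, Klhl2, Klhl3, Trpm6, Trpv5, Calb1 and Pvalb. Of these 10 genes, 8 had at least 1 probe set with that symbol alone, 18 probe sets in all, and all 8 passed the level filter, among 11486 genes tested. Klhl3 and Trpv5 were not analysed here. For each gene the probe set with the highest mean level was used, and its other probe sets were read beside it.

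The arrays held renal cortex RNA of 10 FVB/N mice aged 20 weeks, 1 array per mouse. All 10 mice had lost renal mass by ablation and then had a kidney removed, so every sample is a remnant kidney. In 5 mice the drug was aliskiren at 50 mg/kg per day, an inhibitor of renin, and in the other 5 it was losartan at 500 mg/l, a blocker of the type 1 angiotensin II receptor. Both ran for 6 weeks and were started when the ablation lay 6 weeks and the uninephrectomy 4 weeks back. The comparison is aliskiren against losartan, and mice without a drug were not analysed here. All values are log2 expression values made with RMA by the authors, a ± value is the SD over the 5 mice of a group, SE is that of limma's difference, and differences are aliskiren minus losartan. In a bulk sample fewer cells of a type and less RNA per cell cannot be told apart. Arrays have no read depth, and their number limits the precision.

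WNK kinases phosphorylate the kinase SPAK, which phosphorylates and activates the cotransporter. KLHL2 and KLHL3 hand WNK kinases to a cullin 3 ubiquitin ligase, which marks them for degradation. Angiotensin II and aldosterone raise the activity of the cotransporter, mainly through its phosphorylation, which an RNA array does not measure.

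With aliskiren, 6 of the 8 genes had lower and 2 had higher mean values than with losartan, where 53.8% of all genes tested had a lower mean. The cotransporter gene Slc12a3 and the magnesium channel gene Trpm6 were lower, and the adaptor gene Klhl2 was higher, in every aliskiren mouse than in any losartan mouse. No member passed the threshold after adjustment over all 11486 genes: 0 of 8 did, on a background of 0% (limma, lowest adjusted p 0.945). At an unadjusted p under 0.05 there were 4 of 8, where 4.72% of all genes tested were called. Of these, 3 were lower, against 2.53% of all genes, and 1 was higher, against 2.19%. The groups did not overlap for 3 of 8 genes, where 0.914% of all genes tested showed this. Of these, 2 were lower, against 0.496% of all genes, and 1 was higher, against 0.418%. The median difference of the 8 genes was -0.26, and that of all genes tested was -0.01. These genes were chosen with earlier results of the same arrays known, so their counts do not stand as independent evidence.

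The sequences before an annotated start are shown for the 3 genes without overlap, as the 250 bases before that start in RefSeq (GRCm38.p6, the C57BL/6J reference), 5′ to 3′ on the gene's strand, at chr8:94328958-94329207 on the plus strand for Slc12a3, chr19:18749480-18749729 on the plus strand for Trpm6 and chr8:64849925-64850174 on the minus strand for Klhl2. Each gene's span in the same build begins upstream of the start used, so 99 of the 250 bases for Slc12a3, 245 for Klhl2 and all 250 for Trpm6 lie inside the annotated gene. Capitals mark matches to the motifs searched.
Slc12a3: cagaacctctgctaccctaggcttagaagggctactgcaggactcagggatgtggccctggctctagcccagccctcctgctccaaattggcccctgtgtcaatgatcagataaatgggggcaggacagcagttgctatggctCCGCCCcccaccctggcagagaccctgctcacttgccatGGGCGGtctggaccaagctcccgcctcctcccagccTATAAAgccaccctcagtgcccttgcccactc
Trpm6: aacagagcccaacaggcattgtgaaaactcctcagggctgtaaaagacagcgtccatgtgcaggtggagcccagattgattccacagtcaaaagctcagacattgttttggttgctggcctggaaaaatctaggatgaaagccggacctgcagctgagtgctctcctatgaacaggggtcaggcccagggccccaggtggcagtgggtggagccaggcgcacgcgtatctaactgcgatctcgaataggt
Klhl2: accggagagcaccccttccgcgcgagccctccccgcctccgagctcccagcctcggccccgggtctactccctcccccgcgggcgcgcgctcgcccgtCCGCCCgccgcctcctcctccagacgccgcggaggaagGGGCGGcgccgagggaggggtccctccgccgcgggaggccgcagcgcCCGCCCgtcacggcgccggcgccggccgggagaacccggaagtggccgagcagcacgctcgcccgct
The motifs, searched on both strands, were TGTTCT, a hexamer bound by corticosteroid receptors, the E-box CACGTG, the GC box GGGCGG and the TATA box TATAAA. Slc12a3 had a TATA box beginning 32 bases before the start and 2 GC boxes. Klhl2 had 3 GC boxes in a window of 81.2% G and C, against 61.2% for Slc12a3 and 54.4% for Trpm6, and a median of 52.4% over the windows searched. Trpm6 had no match to any of the motifs. Among 32851 windows of this length, 12.4% held the TATA box, 32.7% the GC box, 16.1% the corticosteroid receptor hexamer and 6.02% the E-box. This hexamer and the E-box were in none of the windows of the 7 members that had one, and Calb1 had no window in the set searched. A match is a run of letters, and its absence says only that these letters are not in this window.

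Slc12a3 encodes the sodium chloride cotransporter NCC, the target of thiazide diuretics. In aliskiren mice 1 to 5 it had log2 values of 11.36, 11.44, 11.43, 11.50 and 11.32, and in losartan mice 1 to 5 values of 12.58, 11.81, 11.92, 11.75 and 11.84. The aliskiren mice lay close together and all below the losartan mice, with a gap of 0.25 between the highest aliskiren and the lowest losartan mouse, and losartan mouse 1 lay well above its group. The means were 11.41 ± 0.07 with aliskiren and 11.98 ± 0.34 with losartan (SD, n = 5 each). The difference was -0.57 (SE 0.14, 95% interval -0.89 to -0.26), or 0.673 times the losartan level, at a limma p of 0.0023 and an adjusted p of 0.945. The two-sided exact permutation p over all assignments of the 10 arrays to 5 and 5 was 0.00794, the smallest this design can give. Without losartan mouse 1 the difference was -0.42 (SE 0.06). The second Slc12a3 probe set had a mean of 4.48, below the level filter of 5.53, and its groups overlapped. With the mean of both probe sets the Slc12a3 difference was -0.36 (SE 0.09).

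**Figure D1:**
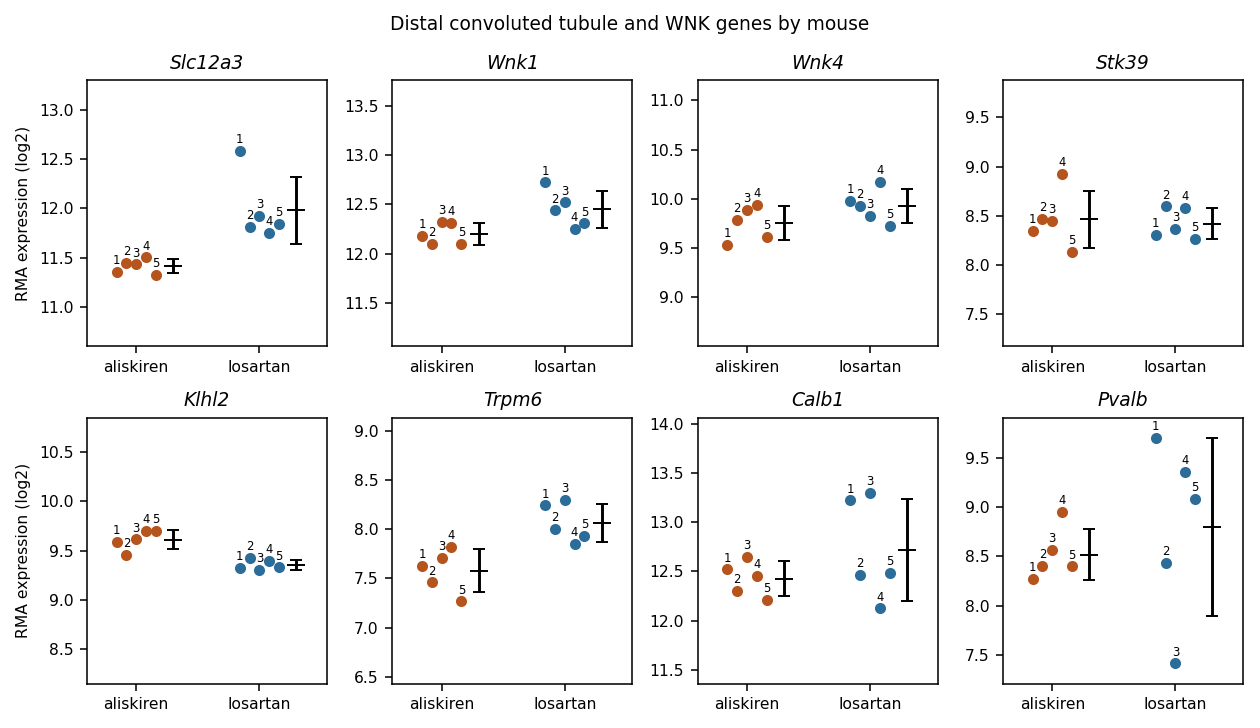
RMA log2 expression of 8 genes in aliskiren mice (left, orange) and losartan mice (right, blue). Numbers are mouse numbers, taken as names and not as pairs. Bars are mean and SD, n = 5 each, and every panel spans the same log2 range. Slc12a3 and Trpm6 lie lower and Klhl2 higher in all aliskiren mice, and losartan mouse 1 stands at 12.58 for Slc12a3.

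The kinases differed less. Wnk1 encodes a WNK kinase and, in the kidney, also a short form without the kinase domain that is made mainly in the distal convoluted tubule. Its main probe set had 12.18, 12.10, 12.32, 12.31 and 12.10 in aliskiren mice 1 to 5 and 12.72, 12.44, 12.52, 12.25 and 12.31 in losartan mice 1 to 5. All aliskiren mice lay below the losartan median of 12.44, but the groups overlapped, since losartan mice 4 and 5 lay among the aliskiren mice. The difference was -0.25 (SE 0.09, 95% interval -0.45 to -0.04), with a limma p of 0.0244, an adjusted p of 0.945 and an exact permutation p of 0.0476. The other Wnk1 probe sets differed by 0.04 (SE 0.16) and -0.03 (SE 0.13). The files do not say which form each probe set reads. The difference of the mean over the 3 probe sets was -0.08 (SE 0.10).

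Wnk4 encodes the WNK kinase best known for control of the cotransporter. It had 9.53, 9.78, 9.88, 9.94 and 9.61 in aliskiren mice 1 to 5, and 9.98, 9.93, 9.83, 10.17 and 9.72 in losartan mice 1 to 5. The groups overlapped over much of their range. The difference was -0.18 (SE 0.10, 95% interval -0.40 to 0.05, limma adjusted p 0.945). Without losartan mouse 4, the highest, it was -0.11. Stk39, which encodes SPAK, had 8.35, 8.47, 8.45, 8.92 and 8.13 in aliskiren mice 1 to 5, and 8.31, 8.60, 8.37, 8.58 and 8.26 in losartan mice 1 to 5. Aliskiren mice were both the highest and the lowest of all, and the difference was 0.04 (SE 0.14, 95% interval -0.26 to 0.34, limma adjusted p 0.989). It was -0.07 without aliskiren mouse 4. In a second Stk39 probe set aliskiren mouse 4 was again the highest, and stood apart at 7.53, where the other aliskiren mice had 6.56 to 6.75.

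Klhl2, the adaptor that hands WNK kinases to the ubiquitin ligase, had higher values with aliskiren. Aliskiren mice 1 to 5 had 9.59, 9.46, 9.61, 9.70 and 9.70, and losartan mice 1 to 5 had 9.32, 9.43, 9.30, 9.39 and 9.33. The gap between the lowest aliskiren and the highest losartan mouse was 0.03, so the groups only just failed to overlap. The means were 9.61 ± 0.10 with aliskiren and 9.36 ± 0.05 with losartan (SD, n = 5 each). The difference was 0.26 (SE 0.06, 95% interval 0.13 to 0.39), or 1.19 times the losartan level, with a limma p of 0.00134, an adjusted p of 0.945 and an exact permutation p of 0.00794. Its second probe set differed in the same direction by 0.17 (SE 0.09), with 7.08 to 7.20 in aliskiren mice and 6.64 to 7.10 in losartan mice, which overlap.

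Trpm6 encodes the channel through which the distal convoluted tubule takes up magnesium. Its main probe set had 7.63, 7.46, 7.71, 7.82 and 7.27 in aliskiren mice 1 to 5, and 8.24, 8.001, 8.30, 7.85 and 7.93 in losartan mice 1 to 5. All aliskiren mice lay below all losartan mice, by a gap of 0.03 between aliskiren mouse 4 and losartan mouse 4. The difference was -0.49 (SE 0.12, 95% interval -0.76 to -0.22), or 0.714 times the losartan level, with a limma p of 0.00233, an adjusted p of 0.945 and an exact permutation p of 0.00794. The second Trpm6 probe set, near the level filter at a mean of 5.65, did not show this: it had 5.35 to 5.97 in aliskiren mice and 5.38 to 5.88 in losartan mice, and differed by 0.01 (SE 0.13). The within-array difference between the main and the second probe set was itself lower with aliskiren, by -0.50 (exact permutation p = 0.0317). With the mean of both probe sets the Trpm6 difference was -0.24 (SE 0.10). The lower value therefore rests on 1 of 2 probe sets.

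Calb1 encodes calbindin-D28k, which buffers calcium in the late distal convoluted tubule and connecting tubule. It had 12.52, 12.30, 12.65, 12.46 and 12.21 in aliskiren mice 1 to 5, and 13.22, 12.46, 13.30, 12.12 and 12.49 in losartan mice 1 to 5. Losartan mice 1 and 3 were high and the remaining losartan mice lay among or below the aliskiren mice. The difference was -0.29 (SE 0.22, 95% interval -0.77 to 0.19, limma adjusted p 0.948). It was -0.17 without losartan mouse 1, -0.15 without losartan mouse 3 and -0.44 without losartan mouse 4. The other 3 Calb1 probe sets differed by -0.31, -0.28 and -0.37, and 2 of them followed the main one closely over the 10 mice, with r of 0.99 and 0.96.

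Pvalb encodes parvalbumin, a calcium buffer of the early distal convoluted tubule in mice. Among the 8 genes it varied most within the losartan group (SD 0.90), but not within the aliskiren group (SD 0.26, where Stk39 had 0.29). Aliskiren mice 1 to 5 had 8.27, 8.40, 8.57, 8.95 and 8.40, and losartan mice 1 to 5 had 9.70, 8.43, 7.41, 9.36 and 9.08. Losartan mice held both the highest and the lowest value. The difference was -0.28 (SE 0.37, 95% interval -1.10 to 0.54, limma adjusted p 0.960), which leaves changes in either direction possible. It was -0.62 without losartan mouse 3, -0.14 without losartan mouse 4 and -0.05 without losartan mouse 1. Parvalbumin is also a muscle protein. All 6 skeletal muscle markers examined lay below the level filter, with a mean level of 3.97 to 4.28 in aliskiren mice and 4.14 to 4.27 in losartan mice.

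**Figure D2:**
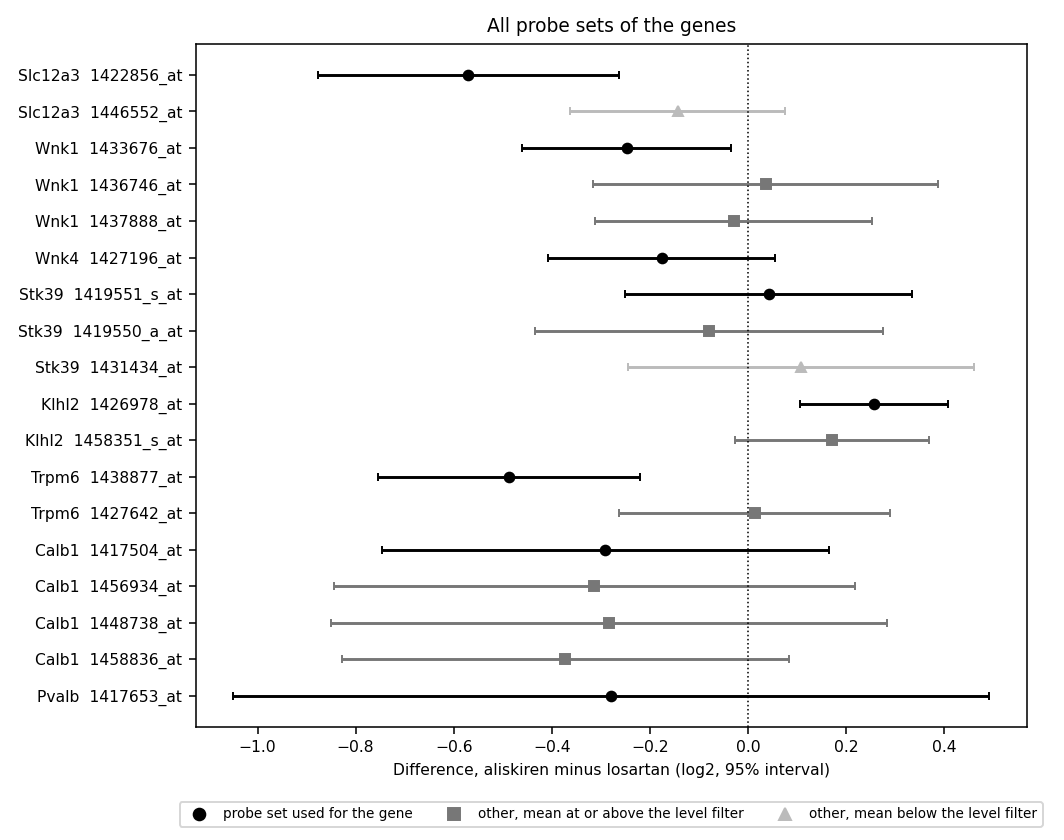
Difference, aliskiren minus losartan, with its 95% interval for the 18 probe sets of the 8 genes, from a limma fit over all non-control probe sets. Circles are the probe sets used for each gene, squares other probe sets at or above the level filter, and triangles those below it. The 4 Calb1 probe sets lie together, whereas the second Trpm6 probe set lies at 0.01 and the first at -0.49.

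Between probe sets of 1 gene, 8 pairs could be compared, each the main probe set with another at or above the level filter. The sign of the difference was shared in 5 pairs and opposite in 3, which belonged to Wnk1, Stk39 and Trpm6. Only the Trpm6 pair had an exact permutation p under 0.05. The 95% interval of the difference lay within 1.5-fold in both directions for 4 of the 8 genes, Wnk1, Wnk4, Klhl2 and Stk39, where 87.7% of all genes tested had such an interval.

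Across the mice, the values of the main probe sets of Slc12a3, Wnk1, Trpm6 and Calb1 followed one another. The main Wnk1 probe set had r of only 0.28 and 0.27 with the other Wnk1 probe sets. The main Trpm6 probe set had r = 0.17 with the second. For Wnk1 and Trpm6 the likeness is therefore that of a single probe set. As a description over the 10 mice, which share one normalisation, Slc12a3 had r = 0.83 with Trpm6 (rho 0.94, r = 0.87 without aliskiren mouse 5 and losartan mouse 1) and r = 0.90 with Wnk1 (rho 0.78, r = 0.72 without the same mice). Part of this is the difference between the drugs. With each drug's mean taken away, r was 0.53 for Slc12a3 with Trpm6, 0.82 for Slc12a3 with Wnk1 and 0.84 for Wnk1 with Trpm6. Calb1 had r = 0.83 with Wnk1 and 0.77 with Trpm6, and 0.84 and 0.82 with each drug's mean taken away, but 0.68 with Slc12a3 (rho 0.47, r = 0.35 without the same mice). Klhl2 ran the other way, with r = -0.77 to Slc12a3 (rho -0.84, r = -0.84 without the same mice), but r was -0.25 with each drug's mean taken away. All 28 pairs of members were computed. The gene most like Slc12a3 over the 10 mice among all genes tested was Ndufa8, a subunit of mitochondrial complex I, with r = 0.93, followed by Wnk1 and then Flt1, Pak3 and Ercc5 with r of 0.89 to 0.90. For Klhl2 these were Zmynd11, Ppp1cb, Dr1, Lasp1 and Med13, with r of 0.90 to 0.93, and with each drug's mean taken away Ppp1cb, a catalytic subunit of protein phosphatase 1, had r = 0.95.

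Other genes listed for the distal convoluted tubule had differences on both sides of 0. Of 26 listed genes for transport and identity of this segment, 23 had a probe set and 20 were tested, of which 11 had lower and 9 higher values with aliskiren. Kcna1, Atp2b4 and Prox1 were below the level filter. The median difference was -0.02, near the -0.01 of all genes, and 0 passed after adjustment. How far the listed genes are particular to this segment in a cortex sample was not tested, so this median is that of the list. At an unadjusted p under 0.05 there were 3, all lower, where 2.53% of all genes were so called: Pgam2, Emx1 and Kcnj10. Pgam2, a glycolytic enzyme, had 9.11, 9.28, 9.36, 8.98 and 8.70 in aliskiren mice 1 to 5 and 10.05, 9.23, 9.85, 9.66 and 9.69 in losartan mice 1 to 5. All losartan mice but mouse 2 lay above the aliskiren mice, and the difference was -0.61 (SE 0.16, limma adjusted p 0.945). Kcnj10, the basolateral potassium channel through which this segment senses plasma potassium, averaged 8.32 ± 0.13 with aliskiren and 8.63 ± 0.23 with losartan, a difference of -0.32 (SE 0.11). The homeobox gene Emx1 differed by -0.23 (SE 0.08), the transcription factor gene Sall3 by -0.24 (SE 0.12) and Bsnd, the barttin subunit of chloride channels, by -0.13 (SE 0.09).

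Genes of the rest of the WNK-SPAK circuit were likewise split. Of 23 listed kinases, ligase parts, phosphatases, hormone receptors and chloride cotransporters, 21 were tested, 11 with lower and 10 with higher values with aliskiren. Their median difference was -0.01, 0 passed after adjustment and 0 at an unadjusted p under 0.05, where 4.72% of all genes did. The 5 of smallest p were the sodium-potassium-chloride cotransporter gene Slc12a2 at 0.22 (SE 0.11), the aldosterone-induced kinase gene Sgk1 at -0.62 (SE 0.39), the signalosome gene Cops5 at -0.09 (SE 0.05), Slc12a1 at 0.40 (SE 0.26) and the phosphatase gene Ppp1ca at -0.11 (SE 0.08). Cul3, the cullin that KLHL2 binds, differed by -0.02 (SE 0.08), and Oxsr1, the kinase closest to SPAK, by 0.05 (SE 0.06).

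**Figure D3:**
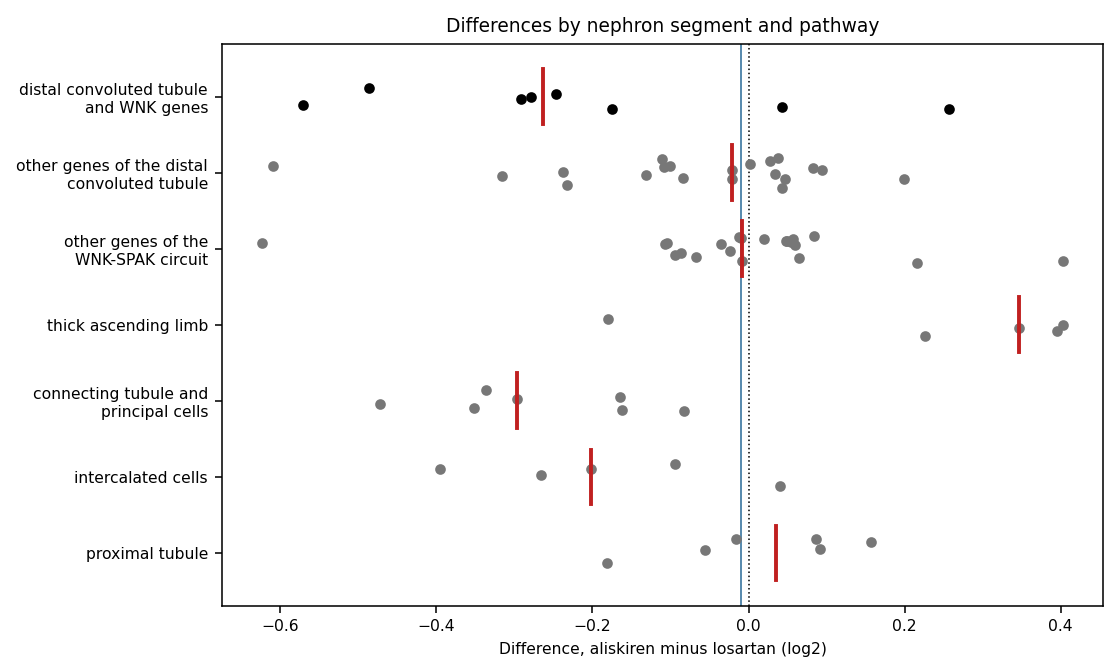
Difference, aliskiren minus losartan, of each tested gene, by nephron segment and pathway. Red bars are list medians, the blue line is the median of all genes tested (-0.01), and vertical scatter within a list has no meaning. The 8 genes have a median of -0.26, connecting tubule and principal cell markers -0.30 and intercalated cell markers -0.20, and the other genes listed for the segment and the circuit centre near 0.

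Neighbouring segments are part of the same samples, and their markers were read beside these results. Of 5 tested markers of the thick ascending limb, upstream of the distal convoluted tubule, 4 were higher with aliskiren, with a median difference of 0.35. At an unadjusted p under 0.05, 1 of these markers was higher, where 2.19% of all genes tested were so called. The mean level of a list is over all its markers with a probe set, also those below the level filter, here Cldn19. For this list it was 10.07 to 10.71 in aliskiren mice and 9.75 to 10.40 in losartan mice. All 7 connecting tubule and principal cell markers were lower, with a median difference of -0.30. At an unadjusted p under 0.05 there were 3, where 2.53% of all genes tested were called lower. The mean level of the list was 8.87 to 9.56 in aliskiren mice and 9.21 to 9.52 in losartan mice. Among these markers Scnn1g, a subunit of the epithelial sodium channel, differed by -0.34 (SE 0.11). Of 5 intercalated cell markers 4 were lower, 2 of them at an unadjusted p under 0.05, against the same 2.53% of all genes. Their median difference was -0.20 and the mean level of the list was 8.47 to 8.72 in aliskiren mice and 8.66 to 8.87 in losartan mice. The 6 proximal tubule markers were split, 3 lower and 3 higher, with a median difference of 0.04. Outside the tubule, all 4 endothelial markers were lower, with a median difference of -0.28 and a mean level of 7.24 to 7.67 in aliskiren mice and 7.04 to 7.95 in losartan mice. All 4 proliferation markers were lower too, with a median difference of -0.53. At an unadjusted p under 0.05 there was 1 of them, where 2.53% of all genes tested were called lower. Their mean level was 6.70 to 7.69 in aliskiren mice and 7.11 to 8.41 in losartan mice. Of the 4 macrophage markers 1 was lower, with a median difference of 0.10, and the 2 tested podocyte markers had a median of -0.08. None of the proximal tubule, endothelial, macrophage or podocyte markers had an unadjusted p under 0.05. The median of the 8 genes is thus within the range of these lists. The mean level of each list overlapped between the groups. The part of the number of cells of each segment in the differences of Slc12a3, Trpm6 and Klhl2 was not tested.

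Injury and fat varied far more between mice than these genes did. Of 6 tubular injury markers, Sox9 was below the level filter. The mean level of all 6 was 7.09 to 8.83 in aliskiren mice and 6.80 to 10.16 in losartan mice. Havcr1, the injury marker KIM-1, was highest in losartan mouse 3 at 10.76. Of 6 perirenal fat markers, Adipoq, Cidec and Ucp1 were below the level filter. The mean level of all 6 was 5.44 to 9.81 in aliskiren mice and 5.58 to 11.94 in losartan mice, again highest in losartan mouse 3. In that mouse Pvalb was lowest of all at 7.41, and Trpm6 at 8.30 and Calb1 at 13.30 were highest of all. Slc12a3 at 11.92 was second highest and Klhl2 at 9.30 lowest of all. Without losartan mouse 3 the Trpm6 difference was -0.43 and the Calb1 difference -0.15. Of the 5 tested injury markers, 2 were lower and 3 higher with aliskiren, with a median difference of 0.01. At an unadjusted p under 0.05 there was 1, Krt19, at -1.10 (SE 0.48), where 2.53% of all genes tested were called lower. Havcr1 averaged 7.67 with aliskiren and 7.66 with losartan, and the fat level 6.81 and 6.95. Covariates with such similar group means can hardly move a difference between the drugs. With Havcr1 as a covariate the differences of Slc12a3, Trpm6 and Klhl2 were -0.57, -0.49 and 0.26, and with the fat level as a covariate they were -0.57, -0.48 and 0.26. The part of injury or fat in these differences was not tested by this. Without losartan mouse 3 and aliskiren mouse 1 the differences of Slc12a3, Trpm6 and Klhl2 were -0.57, -0.44 and 0.25.

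**Figure D4:**
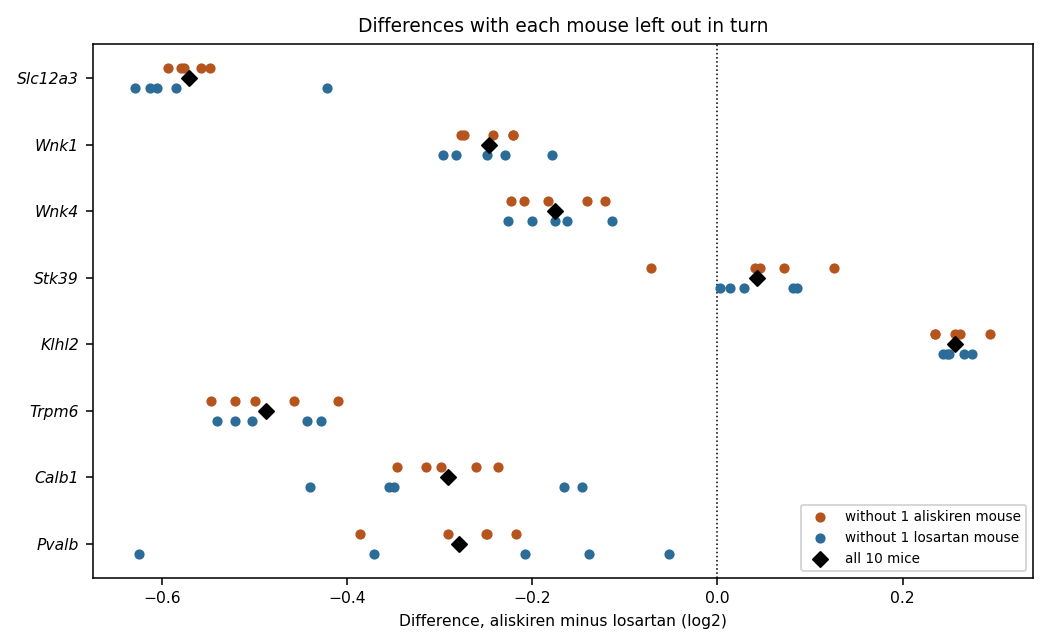
Difference, aliskiren minus losartan, of the 8 genes with all 10 mice (diamonds) and with each aliskiren mouse (orange) or losartan mouse (blue) left out in turn. Klhl2 stays between 0.24 and 0.29 and Trpm6 between -0.55 and -0.41, Slc12a3 is at -0.42 without losartan mouse 1, and Stk39 lies on both sides of 0.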

How the data were processed

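Renal cortex RNA of 10 mice was hybridised to Affymetrix arrays, 1 per mouse, starting from 100 ng of total RNA per the labels' protocols. The authors deposited log2 values for 45101 probe sets, for which the submitters' processing notes name RMA and the software Affymetrix Expression Console 1.1. RMA gives all arrays a common distribution, so overall differences in RNA amount are not visible. The array medians lay between 5.53 and 5.57, and no 2 arrays held identical values. The genome build behind the probe sets is not given in the sources used here.

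After 64 control probe sets were left out, 34945 probe sets had 1 gene symbol in the platform annotation and stood for 18193 genes. The probe set with the highest mean level stood for its gene, and genes whose mean reached the median of non-control probe sets, 5.53, were tested. The values were compared with limma 3.58.1 (R 4.3.3), a two-sided moderated test of the drug with no other term, with Benjamini-Hochberg adjustment over all 11486 genes and a threshold of 0.05, and single genes also by exact permutation. The fit was tested on simulated data. Replicates are separate mice per the labels, and mouse numbers were taken as names. The members, lists and tests were chosen with earlier results of these data known. The rule for named genes took the 10 members, the 5 genes of smallest p in each of 2 pathway lists, the 5 genes most like Slc12a3 and Klhl2, and markers of other cell types. Cul3, Oxsr1, Scnn1g, Krt19 and Havcr1 were picked from the lists after their values were seen. Promoter sequences came from RefSeq (GRCm38.p6). Alternatives covered the level filter, probe set choice, scaling, variance model, array weights, covariates, the mouse number as a block and leaving out mice.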

Additional observations from a re-analysis of the deposited data

Results flagged for a closer look

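Single mice stood apart from the other 4 of their group, by Dixon's test at 95%, in 4 of the 36 sets of 5 values given by the 18 probe sets. Chance gives about 1 in 20. Slc12a3 was at 12.58 in losartan mouse 1, well above the rest of its group. Its second probe set, below the level filter, was at 4.82 in losartan mouse 5. The second Stk39 probe set was at 7.53 in aliskiren mouse 4, the mouse that was also highest in the main one. The third Wnk1 probe set was at 5.76 in aliskiren mouse 1, below the rest of its group, and the main one was not apart in that mouse.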

How the results depend on the processing

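The count of genes past an adjusted p of 0.05 was 0 under all 23 alternatives, with 368 to 1935 genes or probe sets at an unadjusted p under 0.05. Of 176 values of the 8 genes under an alternative, 1 changed sign: Stk39 was at -0.0718 without aliskiren mouse 4, in a range of -0.0718 to 0.13 over the mice left out. The alternatives of level filter, variance model and replicate block leave the difference itself as it was, so their values could not change sign. Nor could averaging probe sets change Wnk4 and Pvalb, which have a single probe set. The lowest adjusted p of any of the 8 genes was 0.610, with Havcr1 as a covariate. Averaging all probe sets of a gene moved Slc12a3 to -0.36, Wnk1 to -0.08 and Trpm6 to -0.24, since it brings in the probe sets that differed less. Pvalb was at -0.55 with array weights. With every mouse left out in turn, Slc12a3 ran from -0.63 to -0.42, Trpm6 from -0.55 to -0.41, Klhl2 from 0.24 to 0.29, Wnk1 from -0.30 to -0.18, Wnk4 from -0.23 to -0.11, Calb1 from -0.44 to -0.15 and Pvalb from -0.62 to -0.05. The mouse number was taken as a name and not as a pairing. Deviations of same-numbered mice correlated from -0.23 to 0.42, and 2 of the 5 correlated best with their own number. So few correlations cannot decide whether the number marks anything shared. With the number as a replicate block the count was 0 (450 genes at an unadjusted p under 0.05), as it was without the block. With 5 mice per group, the probe sets of low level and the wide spread of Pvalb and Calb1 limit what these differences can show.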
